A study of Homo sapiens with 6 samples.

Results

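Surface antigens that are used to recognise or target B-cell precursor leukaemia were followed in REH, a human leukaemia line of that kind, under the STAT3-directed small molecule S3I-201. The set held CD22, CD24, MME, CD38, CD34, CD9, CD99, CD72 and MS4A1. Its members were chosen by symbol, and all 9 were among the 26364 genes of the authors' deposited table. The S3I-201 group had 50 µM of the compound for 6 h and the DMSO group had the solvent for the same time, with 3 libraries of bulk RNA in each and no genetic change named for either. The series' design text places the libraries of a group in independent experiments, all with this single line, so p-values carry no spread between lines. Whether the authors' model had a term for the experiment is not given, so the spread that the p-values describe is not established.

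Leukaemic B-cell precursors carry many of the surface proteins of the normal stage at which they arrested. CD22, CD24 and the peptidase CD10, which MME encodes, appear early in that lineage, CD34 marks still earlier progenitors, and CD20, the product of MS4A1, comes late. Flow cytometry reads such proteins to follow residual disease, and antibodies are directed at several of them, CD22, CD38 and CD20 among them. The comparison asks which of these transcripts differed when STAT3 was targeted.

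CD24 was the single antigen that passed, and on the reading of direction used here it fell with S3I-201. Its level was 65.5% of that in DMSO in the authors' deposited table, or 153% if the table's fold changes run the other way. CD22, MME, CD38, CD72, CD9 and CD99 did not pass. CD34 had between 0 and 13 reads per library, and MS4A1 was listed at 0.

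Values came as the authors' means over all 6 libraries, called normalized counts because the reads were scaled for depth, with a log2 fold change and a p-value. The reference of the fold change was not stated. The deposited comparison is named DMSO vs S3I-201, with DMSO first, and this order does not settle which group is the reference. A positive value was taken, without a test of this choice, to mean more transcript in S3I-201. Under the opposite reading each direction given here turns, and so do the S3I-201 and DMSO sides of the libraries. An implied SE was obtained for each gene from its fold change and the normal quantile of its p, and the intervals are 95% intervals from it. The fold changes appear shrunken towards 0, which understates those of weakly detected genes. The intervals, and the sizes given below as needed to pass, are on that same scale. Depth was estimated at 6560000 to 14500000 counts per library. In bulk RNA, fewer cells with a transcript and less transcript per cell cannot be told apart.

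The line was checked against markers of B-precursor cells. Of 10 such markers, 9 were detected, with the highest mean, 13622, for DNTT, the template-free polymerase of V(D)J joining, in the authors' deposited table. VPREB1, a surrogate light chain gene, was listed at 0 there. EBF1, a factor that sets the B lineage, has no p-value in the authors' deposited table, where its mean was 2992 and its log2 value -0.20. None of the 8 markers that were tested passed 0.05 in the authors' DESeq2 result, beside 5.90% of all tested genes. An unadjusted p under 0.05 was found for 2 of them, DNTT and RAG1, beside 16.0% of all tested genes. Of 26 markers of other cell types, 12 were listed at 0 in the authors' deposited table, among them the T-cell genes CD3D, CD3E, CD3G, CD2, CD5 and CD7, the haemoglobin genes HBB and HBA1, the platelet genes PPBP and PF4, and JCHAIN of plasma cells. The 26 together had a summed mean of 1341, and the highest of them, picked out after the values were seen, was MPO, the myeloperoxidase of myeloid cells, with a mean of 978 in the authors' deposited table. PRDM1, a factor of plasma cell differentiation, rose by a log2 fold change of 1.14 at a mean of 29.7 (authors' deposited table, implied SE 0.27, DESeq2 adjusted p = 0.000875). It was the sole call among the 6 of these markers that were tested, beside 5.90% of all tested genes. The part of other cell types in the results below was not tested.

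The place of the CD24 entry needs to be given before its values. The genes of the authors' deposited table follow the order of the genome, and 8 antigens stood among neighbours of their own chromosome. CD24, whose gene lies on chromosome 6 from 106969831 to 106975627 on the minus strand (GENCODE release 29, GRCh38, as for all gene positions here), did not. It stood between TTTY14 and BCORP1, and 39 of the 39 neighbours that could be placed were genes of chromosome Y. By its start, CD24P4, a processed copy of CD24 on the minus strand of chromosome Y from 18992467 to 18992709, falls between the starts of those 2 genes. The coding sequence of CD24 and the copy are shown because they are nearly the same, and capitals mark the bases that differ.
CD24: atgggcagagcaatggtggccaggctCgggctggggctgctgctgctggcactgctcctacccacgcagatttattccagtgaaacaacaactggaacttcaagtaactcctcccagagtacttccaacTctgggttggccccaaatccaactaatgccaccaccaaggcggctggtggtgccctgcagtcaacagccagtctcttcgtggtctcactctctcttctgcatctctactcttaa
CD24P4: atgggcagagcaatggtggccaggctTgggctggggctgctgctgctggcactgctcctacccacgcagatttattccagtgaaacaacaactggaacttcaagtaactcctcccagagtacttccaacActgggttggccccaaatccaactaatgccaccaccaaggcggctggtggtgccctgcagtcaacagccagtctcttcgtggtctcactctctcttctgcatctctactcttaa

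The 2 sequences, from GENCODE release 29, were identical at 241 of 243 bases, or 99.18%. They differed by C27T and T130A, with the base of CD24 first and positions counted from 1 at the A of the start codon. The longest run without a difference was 113 bases. On chromosome 6 the coding sequence is split by an intron after its first 69 bases, from 106974578 to 106974646 in the first coding exon, whereas the copy is unbroken. The other annotated copies were less alike, with 88.6% identity for CD24P2 on chromosome 15 and 80.17% for CD24P1 on chromosome 1. No copy had an entry of its own in the authors' deposited table, which held 1 entry named CD24. Of the other 105 entries in the run of chromosome Y genes around it, 100 were at 0 and the highest mean was 2.75 in the authors' deposited table, against 6188 for CD24. The entries above 0 were RPS4Y1 at 2.75, KDM5D at 1.05, DDX3Y at 0.27, PRKY at 0.26 and UTY at 0.13. Outside the CD24 entry, transcripts of this run were thus nearly absent. It is not known whether the reads of CD24 were counted on chromosome 6, on chromosome Y or on both. The CD24 value by itself does not separate transcripts of the gene from those of the copy, and a contribution of the copy was not tested.

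**Figure D1:**
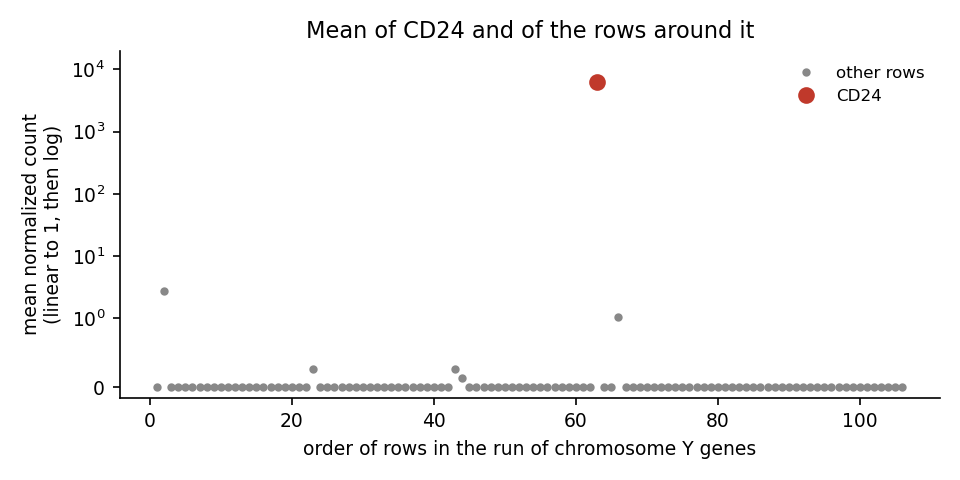
Mean normalized count (vertical axis, linear up to 1 and logarithmic above) of the 106 entries in the run of chromosome Y genes that holds CD24, in the order of the deposited table (horizontal axis). CD24, in red, stands at 6188, while 100 of the 105 others, in grey, lie at 0 and the highest of them at 2.75.

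CD24 encodes a small glycoprotein that a lipid anchors in the membrane and that carries many sugar chains. With a mean normalized count of 6188 it was the most abundant antigen of the set in the authors' deposited table. Its log2 change of -0.61 over DMSO (authors' deposited table, implied SE 0.16, interval -0.93 to -0.29) passed with an adjusted p of 0.00505 by the authors' DESeq2. The interval corresponds to 52.6% to 81.6% of the level in DMSO, or 122% to 190% under the opposite reading. Over all genes, 703 of the 11912 with an adjusted p passed 0.05, or 5.90%, with 4.45% higher and 1.45% lower. Of the 500 tested genes nearest to CD24 in mean, 0.40% had a lower fold change, and their median was -0.08.

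The calls were repeated in 6 other ways, all from the same deposited values, so none is an independent check of CD24. At 0.01 and 0.1 its call followed from its adjusted p of 0.00505 by the authors' DESeq2. CD24 was called in the other ways too, with fold changes between -0.61 and -0.54, and was the sole antigen called in each of the 6. Calls at an adjusted p of 0.01 took 3.71% of all tested genes and calls at 0.1 took 7.54%. Adjusting over every gene that had a p-value took 3.79%, and adjustment over genes with a mean of at least 100 took 6.50%. Removing the median fold change of 20 abundance bins gave 5.99%, and removing the median of all genes gave 5.94%.

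Of the 7 antigens with an adjusted p, 1 was lower and 0 were higher, beside 1.45% and 4.45% of all tested genes, and 6 did not pass. Of the same 7, 1 had an unadjusted p under 0.05, beside 16.0% of all tested genes. The fold change was negative in 5 of the 7, beside 53.6% of all tested genes, with a median of -0.18, beside a median of -0.02 over all tested genes. The remaining 2 antigens, CD34 and MS4A1, had no adjusted p, CD34 because its mean lay under the lowest mean with an adjusted p, 10.0.

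**Figure D2:**
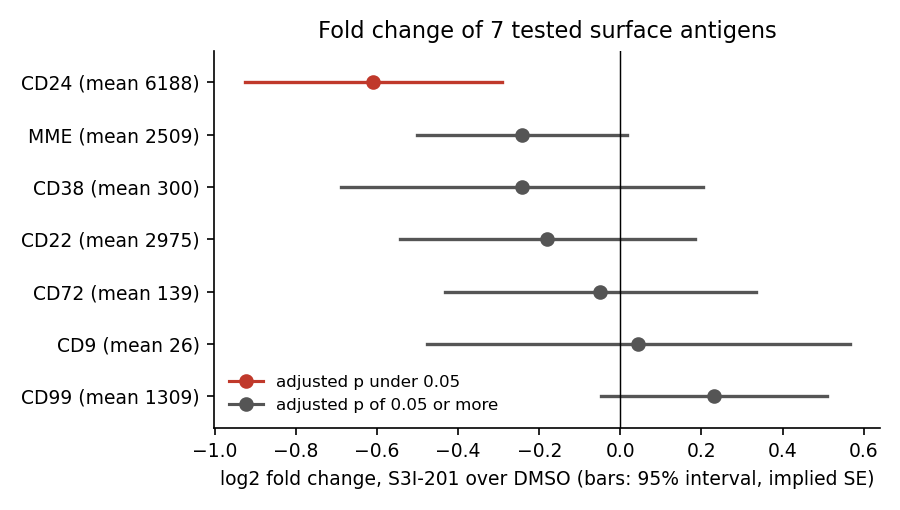
Log2 fold change of S3I-201 over DMSO (horizontal axis) of the 7 antigens with an adjusted p, with the authors' mean normalized count beside each name; points are the authors' values and bars the 95% interval from the implied SE. The interval of CD24, in red, runs from -0.93 to -0.29, and those of the other 6 antigens, in grey, include 0.

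MME encodes CD10, the zinc-dependent peptidase also called neprilysin, long used as the common antigen of this leukaemia. It lies on chromosome 3 from 155024124 to 155183729 on the plus strand and overlaps the antisense gene MME-AS1, whose reads cannot be told apart from its own without strand. Its mean was 2509 and its log2 fold change -0.24 (authors' deposited table, implied SE 0.13, DESeq2 adjusted p = 0.371). The unadjusted p was 0.0674, and the interval ran from 70.6% to 101% of the level in DMSO. The intervals of MME and CD24 overlap, and the difference between the 2 genes was not tested.

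CD22 encodes a sialic acid-binding receptor that dampens signals of the B-cell receptor. It lies on chromosome 19 from 35319261 to 35347355 on the plus strand, with MIR5196 and U62631.1 inside it on the same strand. Its mean of 2975 was of the same order as that of MME, and its log2 fold change was -0.18 (authors' deposited table, implied SE 0.19, DESeq2 adjusted p = 0.735). The implied SE was above the median of 0.14 for the 500 genes of nearest mean. At that SE a log2 change of 0.55 in size would have been needed to pass.

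CD72, a lectin-like receptor that also dampens B-cell receptor signals, lies on chromosome 9 from 35609533 to 35646810 on the minus strand. It overlaps TESK1 and AL357874.1 on the other strand. Its mean was 139 and its log2 fold change -0.05 in the authors' deposited table (interval -0.43 to 0.33, DESeq2 adjusted p = 0.950). Neither inhibitory receptor was therefore shown to change, and the interval of CD72 left room for 74.1% to 126% of the level in DMSO.

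CD38 encodes an ectoenzyme that consumes NAD and makes cyclic ADP-ribose. It lies on chromosome 4 from 15778275 to 15853230 on the plus strand. At a mean of 300.0 its log2 fold change was -0.24 (authors' deposited table, implied SE 0.23, DESeq2 adjusted p = 0.702). The fold change equalled that of MME to 2 decimals, but its interval was wider, from 62.1% to 115% of the level in DMSO.

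CD99 encodes a heavily glycosylated adhesion protein. It lies in the pseudoautosomal region, on chromosome X from 2691133 to 2741309 on the plus strand with the same gene on Y, so its count depends on how reads that match both were placed and is uncertain. At a mean of 1309 its log2 fold change was 0.23, opposite in sign to that of CD24 (authors' deposited table, implied SE 0.14, DESeq2 adjusted p = 0.473). Its interval, from 96.7% to 142% of the level in DMSO, included no change.

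CD9 encodes a tetraspanin, a membrane organiser with 4 passes. It lies on chromosome 12 from 6199715 to 6238271 on the plus strand. With a mean of 26.1 it was the least abundant antigen that was tested, and its log2 fold change was 0.04 (authors' deposited table, implied SE 0.27, DESeq2 adjusted p = 0.965). A log2 change of 0.79 in size would have been needed to pass, on the scale of the authors' fold changes, which appear shrunken. Its sign turned with the removal of the abundance trend, so no direction is given for it.

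**Figure D3:**
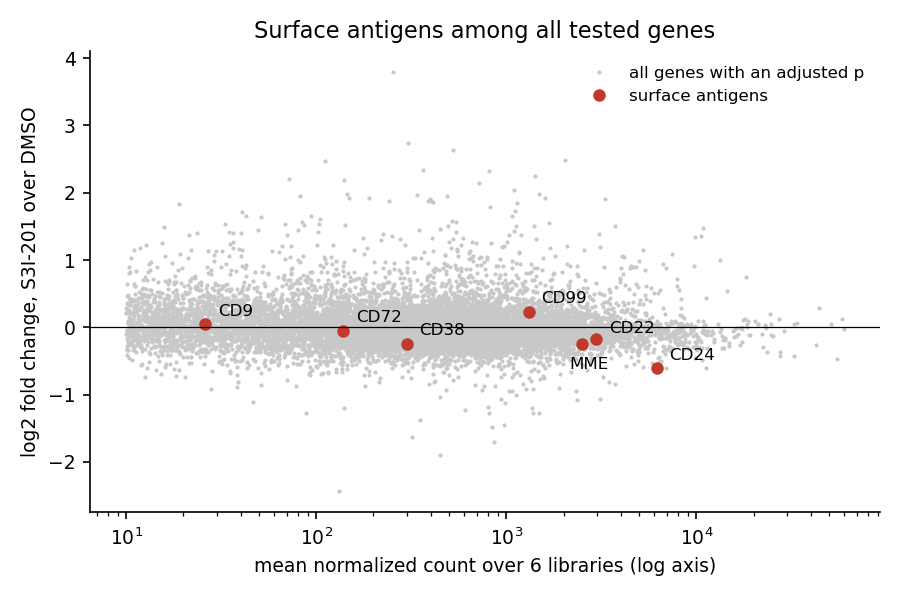
Log2 fold change of S3I-201 over DMSO (vertical axis) against mean normalized count over the 6 libraries (horizontal axis, logarithmic) for the 11912 genes with an adjusted p, in grey, and the 7 antigens among them, in red. CD24 lies at the lower edge of the genes of its abundance, at -0.61, and the other 6 antigens lie between -0.24 and 0.23, within the grey cloud.

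Levels were compared between antigens per kilobase of merged exon (GENCODE release 29). CD24 had 1998 normalized counts per kilobase. Its length was that of the gene on chromosome 6, although the place where its reads were counted is not known. CD22 followed with 483, CD99 with 267 and MME with 261 normalized counts per kilobase. CD38 and CD72 formed a lower pair with 43.8 and 41.0, CD9 had 6.26 and CD34 had 0.409 normalized counts per kilobase. With the length of the longest coding transcript in place of merged exons, CD99 (1014) stood above CD22 (910) and CD72 (68.2) above CD38 (52.9). CD24 and MME kept their places, the first and the fourth. The pooled means carry no spread between libraries, so whether neighbours in this order differ could not be tested.

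**Figure D4:**
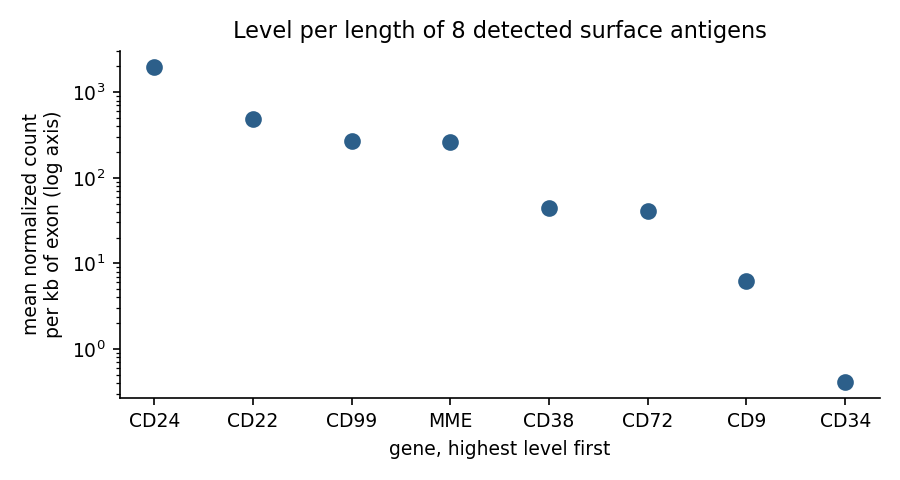
Mean normalized count per kilobase of merged exon (vertical axis, logarithmic) of the 8 detected antigens, highest first (horizontal axis). CD24 stands at 1998 and CD34 at 0.409, with CD99 and MME nearly level at 267 and 261. The length used for CD24 is that of the gene on chromosome 6.

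CD34, a sialomucin of blood progenitors, lies on chromosome 1 from 207880972 to 207911402 on the minus strand. Its mean of 3.77 in the authors' deposited table is low enough to be split into whole reads of the 6 libraries, since each read adds a fixed step that depends on the library's depth. A single split matched the mean within 1e-08. The libraries were told apart by these steps and put on a side by the sign of the fold change of genes with 1 read. They are given from deepest to shallowest on each side and are not tied to replicate numbers. The S3I-201 side had 6, 13 and 2 reads, against 3, 0 and 1 reads on the DMSO side. All 3 libraries on the S3I-201 side were above all 3 on the DMSO side after scaling, with 4.73, 10.9 and 3.49 normalized counts against 2.43, 0 and 1.05.

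The means of CD34 were 6.37 ± 3.97 normalized counts on the S3I-201 side and 1.16 ± 1.22 on the DMSO side (SD, n = 3 libraries each). The ratio was 5.49, or 2.46 on the log2 scale, where the authors' deposited table had 0.39 on that scale. An exact permutation test over the libraries gave a two-sided p of 0.1, the smallest that 3 against 3 allow, and the authors' unadjusted p was 0.0581. Without 1 library at a time the ratio ran from 3.54, without the S3I-201 library of 13 reads, to 12.1, without the DMSO library of 3 reads. Of 1144 genes with means of 2 to 6 and a single split, 9.53% were likewise higher with no overlap between the sides and 3.50% were lower with none. The values of CD34, 21 reads against 4, are therefore given as a description.

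**Figure D5:**
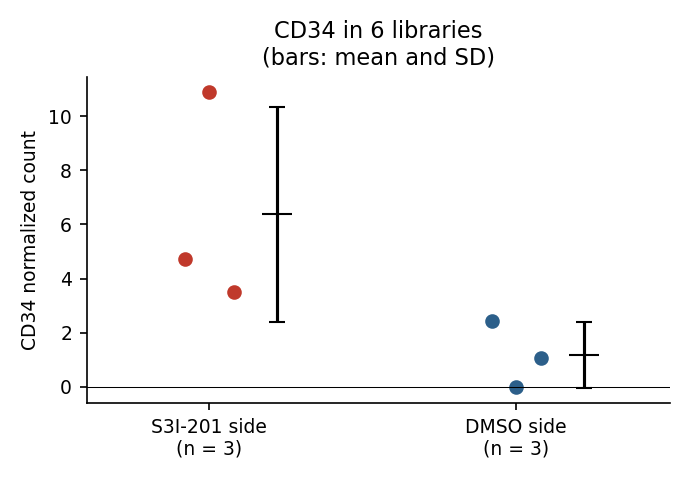
CD34 normalized count (vertical axis) in each of the 6 libraries, by side (horizontal axis); points are libraries, and the bars beside them show the mean and SD of 3. The S3I-201 side lies between 3.49 and 10.9, and the DMSO side between 0 and 2.43.

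MS4A1, which encodes CD20, lies on chromosome 11 from 60455752 to 60470760 on the plus strand. It was listed at 0 in the authors' deposited table, with no read in any of the 6 libraries. A count of 0 allows up to 3 counts, which is 0.207 CPM in the deepest library and 0.457 CPM in the shallowest, for counting error alone.

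Relatives of the antigens by sequence or family were taken from a list of 16 paralogues. Of 5 with an adjusted p, 0 passed and 1 had an unadjusted p under 0.05, beside 5.90% and 16.0% of all tested genes. That gene was PODXL, a sialomucin of the CD34 family, with a log2 change of -0.38 over DMSO (authors' deposited table, implied SE 0.14, DESeq2 adjusted p = 0.0935). The tetraspanin CD82 had the next smallest adjusted p, 0.665 by the authors' DESeq2. MS4A14, of the CD20 family, had 8, 14 and 3 reads on the S3I-201 side, against 4, 0 and 1 on the DMSO side. BST1, the neighbour and relative of CD38, had 8, 4 and 2 reads on the S3I-201 side, against 3, 1 and 1 on the DMSO side. Both were higher with no overlap after scaling, a pattern that 9.53% of genes with means of 2 to 6 shared. MS4A4A was lower with no overlap, at 6, 2 and 1 reads on the S3I-201 side, against 11, 6 and 5 on the DMSO side, and 3.50% of such genes did likewise. PODXL2, MS4A3, MS4A6A and XG, a relative of CD99, overlapped between the sides. MS4A2, MS4A8 and MMEL1, a relative of MME, were listed at 0, and MS4A7 had no single split.

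Other surface antigens of the B lineage gave 0 higher and 1 lower of 13 tested, beside 4.45% and 1.45% of all tested genes, with a median log2 fold change of -0.12. An unadjusted p under 0.05 was found for 3 of the 13, beside 16.0% of all tested genes. The call was SPN, which encodes the sialomucin CD43. SPN fell by 0.58 on the log2 scale at a mean of 4275 (authors' deposited table, implied SE 0.14, DESeq2 adjusted p = 0.00236). CR2, FCER2 and TNFRSF17 of this list were at 0.

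Among 20 tested antigens of progenitors and of residual disease, 1 was higher and 0 were lower, with a median of -0.19. That is 1 of 20 higher, near the 4.45% over all tested genes. An unadjusted p under 0.05 was found for 5 of the 20, beside 16.0% of all tested genes. CSPG4, the proteoglycan also called NG2, rose by a log2 change of 1.45 at a mean of 49.6 (authors' deposited table, implied SE 0.26, DESeq2 adjusted p = 1.59e-06). Of 13 tested inhibitory receptors and their signalling partners, the set of CD22 and CD72 by role, 1 was higher and 0 were lower. Over all tested genes, 4.45% were higher and 1.45% lower. The median of the 13 was -0.14, and 4 had an unadjusted p under 0.05, beside 16.0% of all tested genes. LAIR1, a collagen-binding inhibitory receptor, rose by a log2 change of 0.70 at a mean of 1395 (authors' deposited table, implied SE 0.16, DESeq2 adjusted p = 0.000638). CD22 and CD72 had negative fold changes and did not pass. FCGR2B and SIGLEC6 of the same list were at 0.

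The tetraspanin list and the list of surface peptidases and ectoenzymes, which is wider than the family of MME, held no call. Of 17 tested tetraspanins other than CD9, 0 passed, beside 5.90% of all tested genes, with a median log2 fold change of -0.04. An unadjusted p under 0.05 in the authors' DESeq2 result was found for 0 of the 17, beside 16.0% of all tested genes. TSPAN14 and CD63 had the smallest adjusted p among them, with log2 fold changes of -0.16 and -0.22 in the authors' deposited table, and TSPAN6 and TSPAN32 were listed at 0. Of 7 tested surface peptidases and ectoenzymes, 0 passed, beside the same 5.90%, with a median of 0.21. An unadjusted p under 0.05 was found for 1 of the 7, beside 16.0% of all tested genes. That gene was ECE1, a zinc peptidase related to MME, with a log2 change of 0.41 over DMSO (authors' deposited table, implied SE 0.16, DESeq2 adjusted p = 0.104). ADAM17, a sheddase, was next with 0.33 in the authors' deposited table and did not pass, and DPP4 was listed at 0.

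Promoters were searched for TTCNNNGAA, a form of the site that STAT factors bind and its own reverse complement. Windows ran from 250 bases before to 50 after each start used (RefSeq, GRCh38.p14). None of the 17 windows of the 8 antigens with an entry held these letters. The CD99 window was counted on both X and Y. Not every annotated start was covered. The first MME window began at 155079422, whereas its RefSeq gene begins at 155024202. The RefSeq genes of CD24 and CD72 also reach further upstream than their windows. Over all entries, 7.66% of 35116 windows and 9.38% of 27305 genes held them.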

How the data were processed

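Libraries were made with TruSeq RNA v2, per the labels' protocols, which does not mark strand. The submitters' processing notes name bcl2fastq 2.19, Trimmomatic, Bowtie2, Picard, featureCounts, DESeq2 and hg38; annotation, strand setting and model formula are not given in the sources used here. Per the file headers, the authors' deposited table has a mean normalized count, which is a signal pooled over the libraries, and a log2 fold change. The p-value and its adjusted form were deposited too. It has no column per library, so the count tests that were planned could not be run, and calls rest on the authors' adjusted p. Benjamini-Hochberg adjustment was repeated under other thresholds, filters and centring. Low means were split into whole reads: all 1565 distinct means under 3 had 1 split, and the steps gave size factors of 0.573 to 1.27. Scripts were tested on simulated data (Python 3.11.15, scipy 1.17.1). The members and gene lists were chosen with earlier results of these data known. Named are all members and, of each list, called genes or else the 2 with the smallest adjusted p; members of the paralogue list whose reads could be split are named too. Some genes of the marker lists are not reported here by name.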

Additional observations from a re-analysis of the deposited data

How the results depend on the processing

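No paired analysis was possible because the deposited table pools the libraries; for the same reason the replicate block, the fits without a replicate and other count tools were not run. CD24 was called under all alternatives for which it had a value, with adjusted p from 0.00463 to 0.0188. These alternatives reuse the deposited p-values and fold changes, so they are not independent checks. For CD9 the removal of the abundance trend turned the sign, to a log2 fold change of -0.01 with an adjusted p of 0.999; this follows from its construction, since a median of its bin is subtracted. No other antigen changed its direction or its side of 0.05. Leaving out 1 library at a time and ranking by the longest transcript were chosen after seeing the data. The difference of CD34 between the sides then ran from 2.95 to 6.66 normalized counts, against 5.21 with all libraries. The unstated direction limits the sign of every difference, the shrinkage limits the authors' fold changes, and the place of the entry limits CD24.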
